A study of Caenorhabditis elegans with 21 samples.

Results

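The 9 genes described here encode transcription factors of the stress and immune responses of *Caenorhabditis elegans*. They are *zip-2*, *cebp-1*, *skn-1*, *hlh-30*, *elt-2*, *elt-3*, *pqm-1*, *hsf-1* and *xbp-1*. They were taken by name from a table of 22840 genes in which all 9 were found once, and all 9 had a mean level of at least 1 TPM over the libraries, as did 12843 genes of the table. TPM is a gene's read count per unit of its length, scaled so that each library sums to 1000000. A level is thus a share of its library, which also moves when the shares of other genes move. The median ratio to a gene's average level, over genes of at least 10 TPM, ran from 0.889 to 1.15 among libraries.

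mRNA was sequenced from whole worms of 9 genotypes in 21 libraries, 3 for each of 3 genotypes and 2 for each of 6. *pmk-1* encodes the p38 MAP kinase of the worm's pathogen defence, and *daf-16* encodes the FOXO factor of insulin signalling. The groups were *pmk-1(-)* (allele km25, a null, strain BPW156, 3 libraries), *pmk-1(D327E)* (allele miy7, strain BPW157, 3 libraries), *daf-16(mgDf50)* (strain BPW140), *daf-16(mgDf50);pmk-1(-)* (strain BPW137), *daf-16(mgDf50);pmk-1(D327E)* (strain labelled BPW135), *daf-16(m26)* (strain DR26), *daf-16(m26);pmk-1(-)* (strain BPW133), *daf-16(m26);pmk-1(D327E)* (strain BPW135) and wild type (strain BPW158, 3 libraries), with 2 libraries wherever no number is given. The D327E allele is a CRISPR substitution at the site where the caspase CED-3 cleaves PMK-1, mgDf50 is a deletion of *daf-16*, and m26 changes a *daf-16* splice site. All animals were synchronised by bleaching, hatched without food and then fed OP50 bacteria for 48 hours at 20 °C, with no pathogen or stress treatment named in the labels. The labels give the stage as late L4, while the study's methods speak of young adults. Each genotype was 1 strain, so an effect of an allele cannot be told apart from other differences between the strains. The labels give *daf-16(mgDf50);pmk-1(D327E)* the strain name of the m26 double mutant, and call both libraries of *daf-16(mgDf50);pmk-1(-)* replicate 1, so the library numbers of that genotype come from a suffix in its sample names.

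The 9 factors act in overlapping defence programmes. ZIP-2 and CEBP-1 are bZIP proteins: ZIP-2 turns on defence genes when translation in the intestine is blocked by a pathogen's toxin, and CEBP-1 was first known for axon regeneration downstream of the DLK-1 kinase. SKN-1, the Nrf orthologue, drives detoxification genes and is itself a substrate of PMK-1 under oxidative stress. HLH-30, the TFEB orthologue, drives autophagy and lysosome genes. ELT-2 and ELT-3 are GATA factors of the intestine and the epidermis, and PQM-1 is a zinc-finger protein that acts in the intestine opposite DAF-16. HSF-1 drives heat-shock genes, and XBP-1 drives chaperone genes of the endoplasmic reticulum after its mRNA is spliced by IRE-1. Several of these proteins, among them SKN-1, HLH-30 and HSF-1, are controlled mainly by where they sit in the cell or by modification, which an mRNA level does not measure.

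The genotype labels were first checked against the mutated genes. *daf-16* lay at 6.12 to 7.78 TPM in the 6 mgDf50 libraries, at 55.01 to 61.8 TPM in the 6 m26 libraries and at 41.5 to 47.4 TPM in the 9 *daf-16(+)* libraries, with no overlap between the sets. *pmk-1* mRNA was still present in the null, at 10.7 to 13.9 TPM in its 7 libraries and at 12.7 TPM or more in the other 14, so it does not separate the *pmk-1* genotypes. *T24B8.5*, a gene known to need PMK-1, does separate them, with means of 0.773 to 1.80 TPM in the 3 *pmk-1(-)* genotypes, 62.6 to 96.5 TPM in the 3 *pmk-1(D327E)* genotypes and 19.1 to 28.4 TPM in the 3 *pmk-1(+)* genotypes. Libraries of 1 genotype also differed among themselves. The first axis of variation among the 21 libraries held 52.3% of the variance and parted libraries of 1 genotype, with summed sperm markers at 641 TPM in the second *pmk-1(-)* library and 2939 TPM in the first. Summed TPM of 10 oocyte markers spanned 2944 to 5551 in the 7 *pmk-1(-)* libraries, 3152 to 4906 in the 7 *pmk-1(D327E)* libraries and 2929 to 5232 in the 7 *pmk-1(+)* libraries. No tested gene of the oocyte, intestine, epidermis, neuron, muscle, germ line, sperm or embryo marker lists passed the test in the averaged comparisons used below. In RNA from whole worms, fewer cells of a type and less RNA per cell cannot be told apart. The depth of the libraries is unknown, because TPM values keep no read counts.

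*zip-2* was the only one of the 9 genes whose libraries without functional *pmk-1* all lay apart from the other libraries. Its *pmk-1(D327E)* and *pmk-1(+)* libraries overlapped. *zip-2* was low in all 7 libraries without functional *pmk-1*, in each of the 3 *daf-16* backgrounds. In *pmk-1(-)* animals *zip-2* measured 44.1, 29.4 and 31.6 TPM, in *pmk-1(D327E)* animals 103, 83.8 and 89.7 TPM, and in wild type 71.3, 62.6 and 68.4 TPM. Among *daf-16(mgDf50)* strains it measured 51.8 and 32.1 TPM with *pmk-1(-)*, 112 and 84.1 TPM with *pmk-1(D327E)*, and 131 and 64.98 TPM with *pmk-1(+)*. Among *daf-16(m26)* strains it measured 35.4 and 32.2 TPM with *pmk-1(-)*, 97.7 and 79.8 TPM with *pmk-1(D327E)*, and 102 and 63.5 TPM with *pmk-1(+)*. The 7 null libraries thus lay between 29.4 and 51.8 TPM (median 32.2) and did not overlap the other 14, which lay between 62.6 and 131 TPM. Of all genes tested, 0.615% had 7 null libraries that did not overlap the other 14, and *zip-2* was 1 of 79 such genes and the only member among them.

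**Figure D1:**
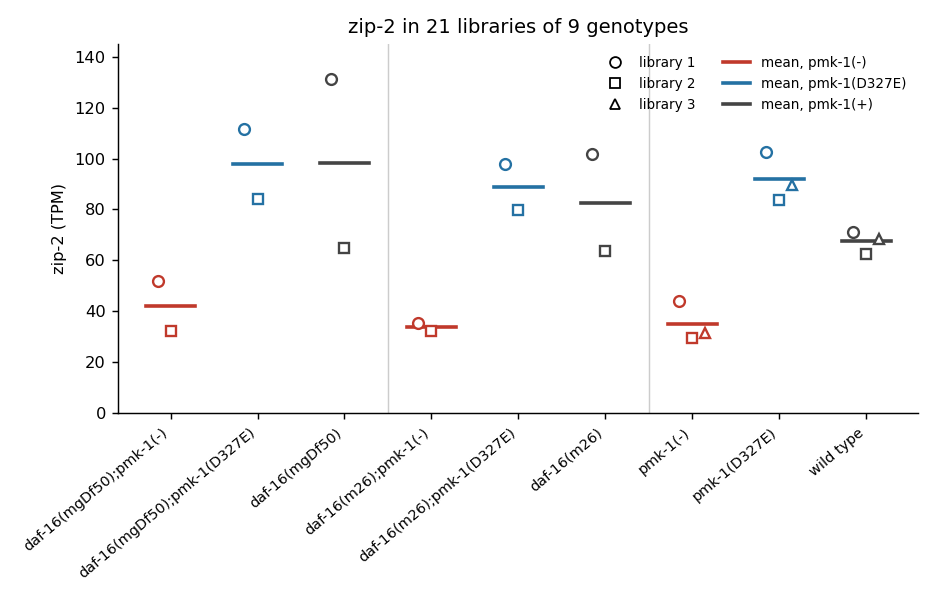
*zip-2* level in TPM (y axis) in each of the 21 libraries, by genotype (x axis), with the 3 *pmk-1* states side by side within each *daf-16* background. Points are libraries, with the marker shape giving the library number, and lines are genotype means. All 7 *pmk-1(-)* libraries sit at 51.8 TPM or lower and all 14 others at 62.6 TPM or higher, and the 2 libraries of *daf-16(mgDf50)* lie farthest apart, at 131 and 64.98 TPM.

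Averaged over the 3 *daf-16* backgrounds, *zip-2* was lower in *pmk-1(-)* than in *pmk-1(+)* animals by a log2 difference of -1.11 on the log2(TPM + 1) scale (SE 0.17, 95% interval -1.47 to -0.75, adjusted p = 0.00212, limma over all genes tested). This is a ratio of 0.463 (95% interval 0.361 to 0.594) on the TPM + 1 scale, with all 7 null libraries below all 7 *pmk-1(+)* libraries. At the adjusted p of 0.1 used throughout, 1.65% of genes passed this comparison. Between the 2 *pmk-1* mutants the difference was as clear: *zip-2* was higher in *pmk-1(D327E)* than in *pmk-1(-)* animals by 1.33 (SE 0.17, 95% interval 0.96 to 1.69, adjusted p = 0.000202, limma), a ratio of 2.51 (1.95 to 3.22), in a comparison that 2.6% of genes passed. A test for any difference among the 9 genotypes gave *zip-2* an adjusted p of 0.0114 (limma) and was passed by 1.86% of genes. *zip-2* was the 1 member of 9 called in each of these 3 comparisons, and 0 of 9 members were called in the other 19.

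Single genotypes gave the same direction with less precision. Against wild type, the log2 difference of *zip-2* was -0.95 in *pmk-1(-)* (SE 0.25, adjusted p = 0.217), -0.71 in *daf-16(mgDf50);pmk-1(-)* (adjusted p = 0.533) and -0.98 in *daf-16(m26);pmk-1(-)* (adjusted p = 0.248, limma). Of all genes, 0.631%, 0.872% and 0.958% passed these comparisons in that order. Within a *daf-16* background it was -1.16 for *daf-16(mgDf50);pmk-1(-)* against *daf-16(mgDf50)* (adjusted p = 0.294) and -1.23 for *daf-16(m26);pmk-1(-)* against *daf-16(m26)* (adjusted p = 0.230, limma), with 0.405% and 0.358% of genes called. Members with an unadjusted p under 0.05 numbered 2 (*zip-2* and *skn-1*) in *pmk-1(-)* against wild type, and 1, *zip-2*, in each of the other 4. The shares of all genes with such a p were 4.65%, 8.23%, 6%, 3.35% and 3.18%, in the order given. Deviations of same-numbered *pmk-1(-)* and wild type libraries correlated unevenly, at 0.196, 0.856 and 0.424. The labels state no pairing and libraries of unlike number were not compared, so the block used next rests on these values alone. Blocking on the library number, that comparison called *zip-2* (-0.95, SE 0.14, adjusted p = 0.00318, limma) and *skn-1* (-0.31, SE 0.07, adjusted p = 0.0831), 2 of 9 members where 1.67% of all genes were called.

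The caspase-resistant allele did not pass the test against an intact *pmk-1*. The 7 *pmk-1(D327E)* libraries held 79.8 to 112 TPM of *zip-2* (median 89.7) and the 3 wild type libraries 62.6 to 71.3 TPM. The 7 *pmk-1(+)* libraries together spanned 62.6 to 131 TPM. The averaged log2 difference was 0.21 (SE 0.17, 95% interval -0.15 to 0.57, adjusted p = 1, limma), where 0.296% of genes were called, and *pmk-1(D327E)* against wild type gave 0.44 (95% interval -0.10 to 0.98, adjusted p = 1), where 0.0779% of genes were called. In the double mutants the share of genes called was 0.257% for *daf-16(mgDf50);pmk-1(D327E)* and 0.21% for *daf-16(m26);pmk-1(D327E)* against wild type, and 0.202% and 0.0467% against *daf-16(mgDf50)* and *daf-16(m26)*. No member was called in these 6 comparisons, and 2 members (*elt-2* and *xbp-1*) had an unadjusted p under 0.05, both in *daf-16(mgDf50);pmk-1(D327E)* against wild type. Of all genes tested, 9.16% had an unadjusted p under 0.05 in that comparison.

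The lower *zip-2* level was not shown to depend on *daf-16*. The interaction of *pmk-1(-)* with mgDf50 was -0.21 and with m26 -0.28, each with an SE of 0.40, and that of *pmk-1(D327E)* was -0.37 with mgDf50 and -0.31 with m26 (0 of 9 members called in any of the 4, smallest adjusted p 0.894, limma, and 0 members at an unadjusted p under 0.05). These SEs leave room for sizeable interactions. The genes called numbered 10 of all genes tested (0.0779%) for *pmk-1(-)* with mgDf50, 2 (0.0156%) with m26, and for *pmk-1(D327E)* 14 (0.109%) with mgDf50 and 3 (0.0234%) with m26. The *daf-16* alleles themselves gave *zip-2* an averaged difference of 0.26 for mgDf50 (adjusted p = 0.338) and 0.06 for m26 (adjusted p = 0.864, limma).

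**Figure D2:**
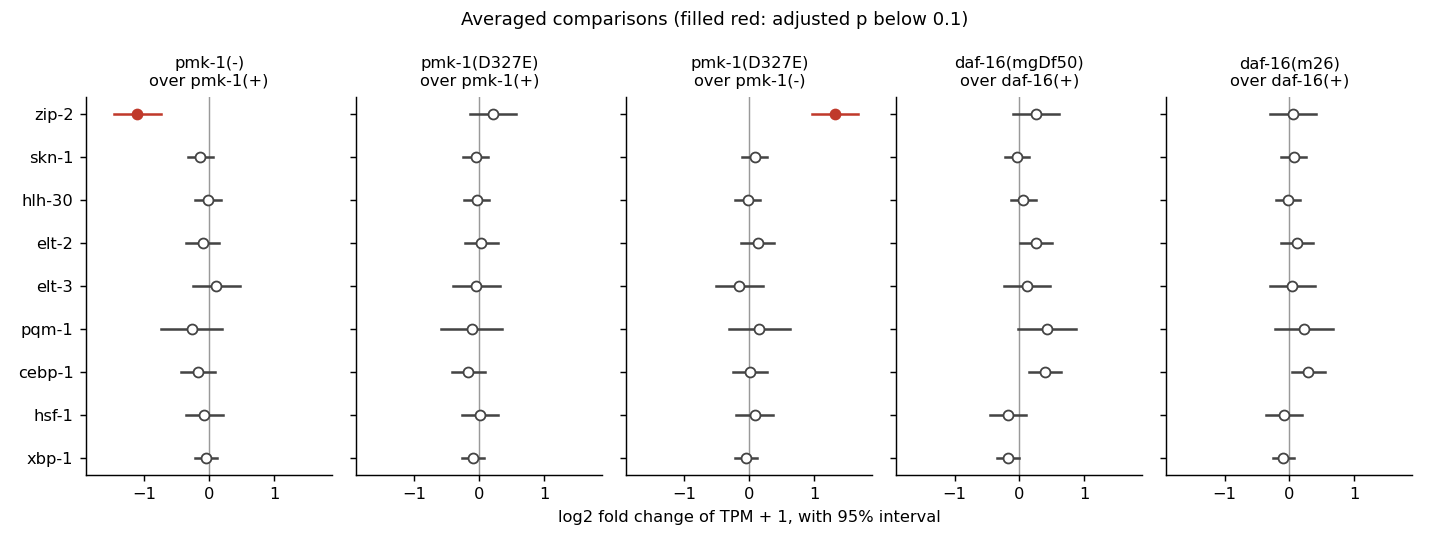
Averaged log2 difference with its 95% interval (x axis, log2(TPM + 1) scale) of each of the 9 genes (y axis) in the 5 averaged comparisons, with filled red marking an adjusted p under 0.1. *zip-2* is the only gene whose interval stays clear of 0 in *pmk-1(-)* against *pmk-1(+)* (-1.47 to -0.75) and in *pmk-1(D327E)* against *pmk-1(-)* (0.96 to 1.69), and *cebp-1* has the largest shift of those whose interval clears 0 in mgDf50 (0.15 to 0.65).

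Ordered by mean level, the 3 *pmk-1(-)* genotypes came lowest, at 33.8 ± 2.24 TPM in *daf-16(m26);pmk-1(-)*, 35.0 ± 7.92 TPM in *pmk-1(-)* and 42.0 ± 13.9 TPM in *daf-16(mgDf50);pmk-1(-)*. Wild type followed at 67.4 ± 4.43 TPM, then *daf-16(m26)* at 82.6 ± 27.01, *daf-16(m26);pmk-1(D327E)* at 88.8 ± 12.63, *pmk-1(D327E)* at 92.0 ± 9.60, *daf-16(mgDf50);pmk-1(D327E)* at 97.9 ± 19.4 and *daf-16(mgDf50)* at 98.1 ± 46.8 TPM (SD, n = 3 for the single *pmk-1* mutants and wild type and 2 for the rest). The step between *daf-16(mgDf50);pmk-1(-)* and wild type was the only one between neighbours whose libraries did not overlap. Genotype took 84.8% of the variance of *zip-2* among libraries, against 10.2% to 61.1% for the other 8 genes and a median of 34.7% over all genes tested. These shares are not corrected for the number of genotypes, so part of each would arise without any genotype effect. The annotation places *dos-3*, a non-coding RNA and a snoRNA over *zip-2*, and all of them stayed below 0.84 TPM in every library.

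The 3 genes listed as induced through ZIP-2 were weakly expressed in these unchallenged animals. *pgp-5*, which encodes an ABC transporter, passed the test: its 7 *pmk-1(-)* libraries held 0.481 to 3.03 TPM, its 7 *pmk-1(D327E)* libraries 1.87 to 13.2 TPM and its 7 *pmk-1(+)* libraries 1.33 to 23.7 TPM. The averaged log2 difference was -1.57 for *pmk-1(-)* against *pmk-1(+)* (SE 0.38, adjusted p = 0.0604) and 1.60 for *pmk-1(D327E)* against *pmk-1(-)* (SE 0.38, adjusted p = 0.0369, limma). Under the alternatives tried, the calls were lost in 12 and 6 of 30. Unlike for *zip-2*, the sets overlapped, and in the *daf-16(+)* background *pgp-5* was low in all genotypes, with wild type at 1.75, 1.33 and 2.66 TPM. *irg-1*, an infection response gene, lay at 0.365 to 2.65 TPM in *pmk-1(-)*, 0.487 to 7.80 TPM in *pmk-1(D327E)* and 0.533 to 21.9 TPM in *pmk-1(+)* libraries and was not called (averaged *pmk-1(-)* difference -1.40, SE 0.41, adjusted p = 0.182, limma). *irg-2* stayed between 0.0388 and 3.95 TPM and missed the filter on low values. The highest value of all 3 genes was in the first *daf-16(mgDf50)* library, which also had the most *zip-2* mRNA.

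**Figure D3:**
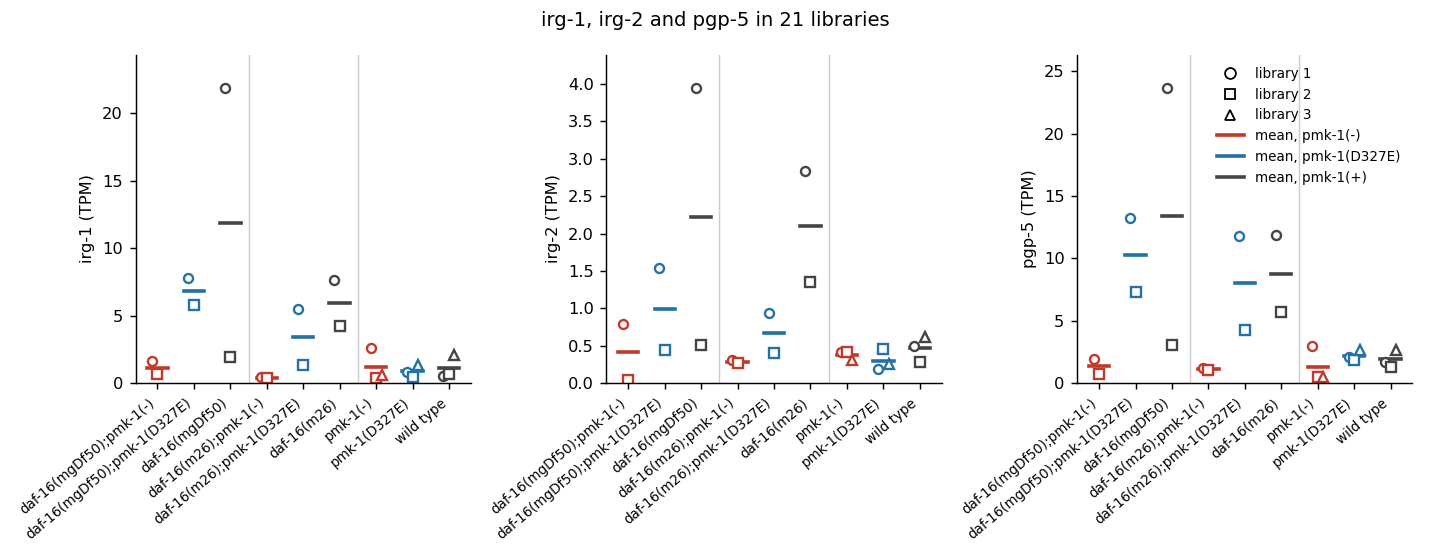
Levels in TPM (y axes) of *irg-1*, *irg-2* and *pgp-5* in each library, by genotype (x axis); points are libraries and lines are genotype means. The *pmk-1(-)* libraries stay at or below 3.03 TPM in all 3 panels, and the first *daf-16(mgDf50)* library is highest in each, at 21.9, 3.95 and 23.7 TPM.

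The genes whose 9 genotype means ran most alike to those of *zip-2* (Pearson's r on log2(TPM + 1), given as a description) were *K04F1.9* (r = 0.992), *F38B7.2* (r = 0.990) and *T05E12.6* (r = 0.989). *T05E12.6* averaged 57.2 ± 12.8 TPM in *pmk-1(-)*, 146 ± 22.9 TPM in *pmk-1(D327E)* and 119.3 ± 31.5 TPM in wild type, *K04F1.9* 1.43 ± 0.879, 17.9 ± 1.37 and 11.5 ± 3.38 TPM, and *F38B7.2* 1.67 ± 0.603, 5.24 ± 0.766 and 4.38 ± 1.45 TPM in the same genotypes (SD, n = 3). In all, 142 genes reached an r of at least 0.9. No other member did: *elt-2* came closest at 0.56, and *elt-3* ran the other way at -0.44.

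*cebp-1* was the least abundant member. Of the 9 members it had the smallest adjusted p in both averaged *daf-16* comparisons (limma). *pqm-1* had a larger averaged mgDf50 difference, with more spread within genotypes. *cebp-1* measured 10.4 and 5.54 TPM in *daf-16(mgDf50)*, 7.42 and 5.86 TPM in *daf-16(mgDf50);pmk-1(-)* and 7.43 and 6.84 TPM in *daf-16(mgDf50);pmk-1(D327E)*. In *daf-16(m26)* it measured 9.73 and 6.50 TPM, in *daf-16(m26);pmk-1(-)* 6.02 and 5.55 TPM and in *daf-16(m26);pmk-1(D327E)* 6.44 and 5.68 TPM. In the *daf-16(+)* background it measured 5.68, 4.80 and 5.92 TPM in *pmk-1(-)*, 4.50, 5.10 and 5.04 TPM in *pmk-1(D327E)* and 5.02, 4.98 and 5.46 TPM in wild type. The 12 *daf-16* mutant libraries thus spanned 5.54 to 10.4 TPM and the 9 *daf-16(+)* libraries 4.50 to 5.92 TPM, with overlap.

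The fit without a replicate block did not call this difference. Averaged over the *pmk-1* states, *cebp-1* was 0.40 higher on the log2 scale in mgDf50 than in *daf-16(+)* animals (SE 0.12, 95% interval 0.15 to 0.65, ratio 1.32, adjusted p = 0.110), which missed the threshold of 0.1 in a comparison where 2.57% of genes were called. The m26 value was 0.29 (SE 0.12, 95% interval 0.04 to 0.55, adjusted p = 0.379, limma), where 0.864% of genes were called. No member was called in either, while 3 (*cebp-1*, *elt-2* and *xbp-1*) and 1 (*cebp-1*) had an unadjusted p under 0.05. Such a p was also common among all 12843 genes tested, with 2706 genes in mgDf50 and 1432 in m26. Against wild type, *daf-16(mgDf50)* gave 0.49 and *daf-16(m26)* 0.55 (0 of 9 members called, limma), with 0.366% and 0.195% of genes called. An unadjusted p under 0.05 was found for 2 and 1 members, and for 10.2% and 7.23% of all genes tested. No member had 6 mgDf50 or 6 m26 libraries clear of all 9 *daf-16(+)* libraries, as 0.498% and 0.514% of genes did. The first *daf-16(mgDf50)* library carried much of the mgDf50 value. Without it the averaged difference was 0.27 (adjusted p = 0.431), and without the second it was 0.53 and called (adjusted p = 0.0185, limma).

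Of the 7 genes listed for the DLK-1 to CEBP-1 pathway, none was called in *pmk-1(-)* or *pmk-1(D327E)* against *pmk-1(+)* or in m26. *nipi-3*, which encodes a Tribbles kinase that restrains CEBP-1, was called lower in *pmk-1(D327E)* than in *pmk-1(-)* animals (log2 difference -0.38, SE 0.08, adjusted p = 0.0208), a call lost in 1 of 31 alternatives. *dlk-1* was 0.25 higher in mgDf50 than in *daf-16(+)* animals (SE 0.07, adjusted p = 0.0919, limma), a call lost in 23 of 31 alternatives. The *pmk-1* alleles moved *cebp-1* itself by an averaged -0.17 in the null (95% interval -0.43 to 0.09) and -0.17 in *pmk-1(D327E)* (-0.43 to 0.09), and 0.01 lay between these 2 mutants (-0.25 to 0.27).

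**Figure D4:**
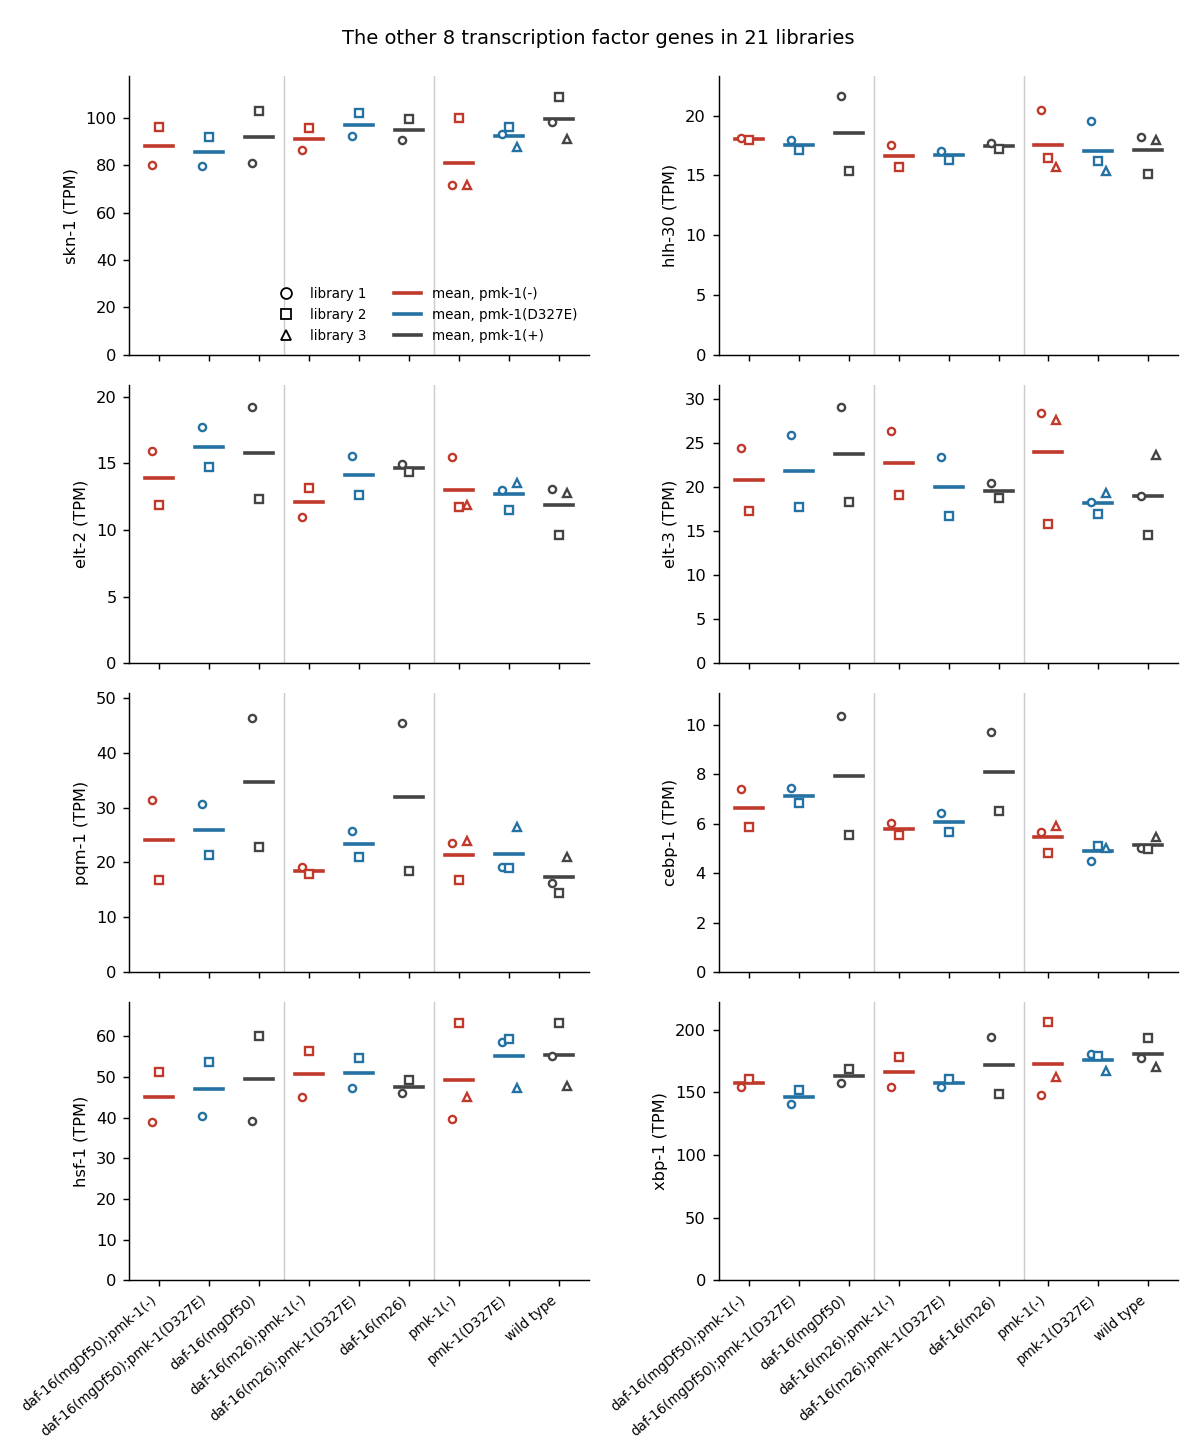
Levels in TPM (y axes, each panel on its own scale starting at 0) of the 8 genes other than *zip-2* in each library, by genotype (x axis); points are libraries, marker shapes give library numbers and lines are genotype means. Ordered by mean level, neighbouring genotypes overlap in every panel but at 1 step each of *hlh-30* and *xbp-1*. *cebp-1* lies at 5.54 to 10.4 TPM in the 12 *daf-16* mutant libraries and at 4.50 to 5.92 TPM in the 9 *daf-16(+)* libraries.

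*skn-1* was among the more abundant members (71.6 to 109 TPM over the 21 libraries) and varied little. It measured 71.8, 99.9 and 71.6 TPM in *pmk-1(-)*, 93.2, 96.1 and 87.8 TPM in *pmk-1(D327E)* and 98.5, 109 and 91.3 TPM in wild type, and averaged 85.8 to 97.2 TPM in the 6 *daf-16* mutant genotypes. The 2 lowest libraries of all were *pmk-1(-)* libraries, but the remaining *pmk-1(-)* library reached into the wild type range. *skn-1* in *pmk-1(-)* against wild type was -0.31 (SE 0.14, adjusted p = 0.746, limma) without the block given above, and the averaged difference was -0.14 (SE 0.09, 95% interval -0.33 to 0.05, adjusted p = 0.997). *csn-5* and *clec-178* overlap *skn-1* on the opposite strand, at 64.0 to 96.7 TPM and 4.67 to 7.63 TPM. The strand setting of the counting is not given in the sources used here, so reads of *skn-1* and *csn-5* cannot be told apart with certainty.

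Among 12 tested SKN-1 targets, mostly glutathione enzymes, none was called in *pmk-1(-)* or *pmk-1(D327E)* against *pmk-1(+)* or in mgDf50. Their median log2 difference in averaged *pmk-1(-)* was -0.01, beside -0.03 for all genes tested. *gcs-1*, the rate-limiting enzyme of glutathione synthesis and the usual SKN-1 reporter gene, had an averaged *pmk-1(-)* difference of -0.17 (SE 0.07, adjusted p = 0.506), and *gst-4*, a glutathione S-transferase, 0.02 (SE 0.25, limma). The *pmk-1(D327E)* against *pmk-1(-)* comparison called *gst-13* higher (0.91, SE 0.18, adjusted p = 0.0102) and *nit-1* lower (-0.54, SE 0.13, adjusted p = 0.0355, a call lost in 5 of 31 alternatives), and *nit-1* was also called higher in m26 (0.52, adjusted p = 0.0922, limma), a call lost in 21 of 31 alternatives. Of 6 SKN-1 regulators, only *pmk-1* itself was called, in *pmk-1(-)* (-0.28, adjusted p = 0.0584), a call on the mutated gene that was lost in 12 of 31 alternatives.

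*hlh-30* had the smallest ratio of highest to lowest library (1.43) of the 9 members, at 15.1 to 21.6 TPM, with genotype means between 16.6 ± 1.26 TPM in *daf-16(m26);pmk-1(-)* and 18.5 ± 4.41 TPM in *daf-16(mgDf50)* (SD, n = 2 each). It averaged 17.5 ± 2.56 TPM in *pmk-1(-)*, 17.04 ± 2.21 TPM in *pmk-1(D327E)* and 17.1 ± 1.71 TPM in wild type (SD, n = 3 each). The averaged difference was -0.02 for *pmk-1(-)* (95% interval -0.21 to 0.18) and -0.04 for *pmk-1(D327E)* (-0.24 to 0.15). Only 10.2% of its variance lay between genotypes. None of 8 HLH-30 regulators, such as the TOR kinase gene *let-363* and the competing factor gene *mxl-3*, and none of 13 tested autophagy and lysosome targets was called in *pmk-1(-)* against wild type or in any of the 5 averaged comparisons (limma).

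The intestinal and epidermal factors were next. *elt-2* measured 15.5, 11.7 and 11.9 TPM in *pmk-1(-)*, 13.01, 11.5 and 13.5 TPM in *pmk-1(D327E)* and 13.1, 9.66 and 12.8 TPM in wild type. In *daf-16* mutants it reached 19.2 TPM in the first *daf-16(mgDf50)* library. Of the 12 *daf-16* mutant libraries, 8 lay above every wild type library and 4 above every *daf-16(+)* library. The share of all genes with such counts was not computed. Its averaged mgDf50 difference was 0.26 (95% interval 0.01 to 0.50, adjusted p = 0.220, limma) and its averaged *pmk-1(-)* difference -0.10 (-0.35 to 0.15). Summed TPM of 8 intestine markers lay at 2468 to 4408 in the 6 mgDf50 libraries and at 2024 to 3474 in the 9 *daf-16(+)* libraries, and the part of this in the *elt-2* value was not tested. *elt-3* averaged 24.0 ± 7.04 TPM in *pmk-1(-)*, 18.2 ± 1.19 TPM in *pmk-1(D327E)* and 19.04 ± 4.52 TPM in wild type (SD, n = 3 each), with an averaged *pmk-1(-)* difference of 0.11 (95% interval -0.25 to 0.47). It ranged over 14.6 to 29.1 TPM, mostly within genotypes, which left 19.8% of its variance between them.

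Of 12 tested intestinal genes bound or activated by ELT-2, 2 were called lower in averaged *pmk-1(-)*: *clec-67*, a C-type lectin gene (-1.89, SE 0.31, adjusted p = 0.00347), and *lys-8*, a lysozyme gene (-0.48, SE 0.11, adjusted p = 0.0532, limma). Both were called higher in *pmk-1(D327E)* than in *pmk-1(-)* animals, by 3.67 and 0.79, and *clec-67* was also called higher in *pmk-1(D327E)* than in *pmk-1(+)* animals (1.78, adjusted p = 0.0206, limma), a call lost in 4 of 31 alternatives. The *lys-8* call in *pmk-1(-)* was lost in 12 of 31 alternatives. *clec-67* was weakly expressed, with a mean of 0.0238 TPM in *pmk-1(-)*, 3.25 TPM in *pmk-1(+)* and 12.7 TPM in *pmk-1(D327E)* libraries. The size of its differences is thus uncertain, and in *pmk-1(-)* it ran from -4.44 to -1.44 over the 31 alternatives. Lectins and lysozymes are also known as immune effectors. The remaining 10, among them the gut esterase gene *ges-1*, were called in none of these comparisons. Of 9 other GATA factor genes, 4 were abundant enough to test and none was called. *elt-7*, the partner of *elt-2* in the gut, had an averaged *pmk-1(-)* difference of -0.01 (SE 0.11).

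*pqm-1* varied more within genotypes than any other member, with a within-genotype SD of 0.43 on the log2 scale against a median of 0.23 over all genes tested. It measured 46.4 and 22.9 TPM in *daf-16(mgDf50)*, 45.5 and 18.5 TPM in *daf-16(m26)*, 23.5, 16.8 and 23.9 TPM in *pmk-1(-)*, 19.2, 18.9 and 26.4 TPM in *pmk-1(D327E)* and 16.22, 14.5 and 21.1 TPM in wild type. The double mutants lay between 16.8 and 31.5 TPM. In each *daf-16* single mutant, 1 library was far above and the other close to the rest of the series. The difference from wild type was accordingly 0.90 for *daf-16(mgDf50)* (SE 0.37, 95% interval 0.12 to 1.68, adjusted p = 0.488) and 0.74 for *daf-16(m26)* (SE 0.37), and the averaged mgDf50 difference was 0.42 (95% interval -0.03 to 0.88, adjusted p = 0.257, limma). Without the second *daf-16(mgDf50)* library the averaged difference was 0.59 and called (adjusted p = 0.0849), and without the first it was 0.26 (adjusted p = 0.754).

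The class II *dod* genes, which carry the DAF-16-associated element that PQM-1 binds, gave larger differences than *pqm-1* itself. All 5 of those tested were called higher in *pmk-1(D327E)* than in *pmk-1(-)* animals, with a median log2 difference of 3.64 beside 0.01 for all genes tested. In averaged *pmk-1(-)* 4 of 5 were called lower. *dod-24*, at 0.725 to 6.21 TPM in the 7 *pmk-1(-)* libraries, gave -4.05 (SE 0.32, adjusted p = 2.25e-06, limma), and *dod-22* was listed at 0 TPM in 6 of those 7 libraries. In averaged *pmk-1(D327E)* 2 were called higher, *dod-22*, a call lost in 6 of 31 alternatives, and *dod-23*. In averaged mgDf50 *dod-22* was called higher (1.27, adjusted p = 0.0717), a call lost in 16 of 31 alternatives. *pqm-1* itself had an averaged *pmk-1(-)* difference of -0.27 (95% interval -0.74 to 0.19) and an averaged *pmk-1(D327E)* difference of -0.12 (-0.58 to 0.35). Several of these *dod* genes are also known as PMK-1-dependent immune genes.

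*hsf-1* measured 39.6, 63.2 and 45.1 TPM in *pmk-1(-)*, 58.5, 59.4 and 47.4 TPM in *pmk-1(D327E)* and 55.2, 63.3 and 47.6 TPM in wild type. The 12 *daf-16* mutant libraries lay between 38.8 and 59.9 TPM, and the 9 *daf-16(+)* libraries between 39.6 and 63.3 TPM. The averaged difference was -0.07 for *pmk-1(-)* (95% interval -0.36 to 0.21), 0.01 for *pmk-1(D327E)* (-0.27 to 0.30), -0.17 for mgDf50 (-0.45 to 0.10) and -0.08 for m26 (-0.36 to 0.19). None of 5 HSF-1 regulators was called. Of 9 tested heat-shock targets, none was called with either *pmk-1* allele, while in averaged mgDf50 the small heat-shock protein genes *hsp-16.41* (1.22, SE 0.20, adjusted p = 0.00869) and *hsp-16.2* (1.05, adjusted p = 0.0250) were called higher and *sip-1* lower (-0.54, SE 0.15, adjusted p = 0.0983, limma), the last a call lost in 24 of 31 alternatives. The median of the 9 in mgDf50 was -0.15, of opposite sign to the 2 *hsp-16* genes. *hsp-1*, the constitutive Hsp70, had an averaged mgDf50 difference of -0.16 (SE 0.06, adjusted p = 0.154). *hsp-16.41* averaged 2.49 TPM over all libraries. Some *hsp-16* genes are near-identical copies, so reads may be shared among those.

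*xbp-1* was the most abundant member, at 141 to 206 TPM. It averaged 172 ± 30.3 TPM in *pmk-1(-)*, 176 ± 7.43 TPM in *pmk-1(D327E)* and 180 ± 12.1 TPM in wild type (SD, n = 3 each). The 12 *daf-16* mutant libraries lay between 141 and 194 TPM and the 9 *daf-16(+)* libraries between 148 and 206 TPM. The averaged difference was -0.17 for mgDf50 (95% interval -0.34 to -0.01, adjusted p = 0.220) and -0.09 for m26 (-0.26 to 0.07), against -0.06 for *pmk-1(-)* (-0.23 to 0.11) and -0.10 for *pmk-1(D327E)* (-0.27 to 0.07, limma). A gene-level value does not separate the spliced from the unspliced *xbp-1* mRNA. None of 3 sensors of the unfolded protein response and none of 10 XBP-1 targets and chaperones was called in *pmk-1(-)* against wild type or in the averaged comparisons. *hsp-4*, the BiP gene used as its reporter, had an averaged *pmk-1(-)* difference of -0.05 (SE 0.08) and an averaged mgDf50 difference of -0.21 (SE 0.08, adjusted p = 0.187, limma).

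Over the 8 members other than *zip-2*, the averaged *pmk-1(-)* differences lay between -0.27 and 0.11 and the averaged *pmk-1(D327E)* differences between -0.17 and 0.03, with 95% intervals that together ran no lower than -0.74 and no higher than 0.47. Of 28 other stress and immune transcription factor genes tested, none was called with either *pmk-1* allele, and *daf-16* itself was the only gene called in mgDf50 (lower) and in m26 (higher). *atf-7*, the bZIP factor phosphorylated by PMK-1, had an averaged *pmk-1(-)* difference of -0.13 (SE 0.08, adjusted p = 0.997, limma).

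Levels also differed between library numbers, and the share of the variation that went with the numbers was not computed. In the 6 genotypes with 2 libraries, the library numbered 1 had less *skn-1* and *hsf-1* than the library numbered 2 in 6 of 6 genotypes, with median log2 differences of -0.18 and -0.36. It had more *elt-3*, *pqm-1*, *hlh-30*, *zip-2* and *cebp-1* in 6 of 6, with medians of 0.47, 0.68, 0.06, 0.54 and 0.23, and more *elt-2* in 5 of 6. The summed tissue markers also differed between the numbers: neurons (median 0.54), intestine (0.37) and epidermis (0.24) were higher in the library numbered 1 in 6 of 6 genotypes, while oocyte (-0.35), germ line (-0.23) and embryo (-0.40) markers were lower in 6 of 6. Sperm markers (0.26) were higher and yolk genes (-0.10) lower in 5 of 6, and muscle markers (-0.01) were higher in 2 of 6. Apart from the refit with oocyte markers given below, the part of these markers in the members' differences was not tested. In the 3 genotypes with 3 libraries, the library numbered 2 had the most *skn-1* and *hsf-1* and the least *elt-2*, *elt-3*, *pqm-1* and *zip-2* in all 3. What the numbers stand for is not given in the labels.

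**Figure D5:**
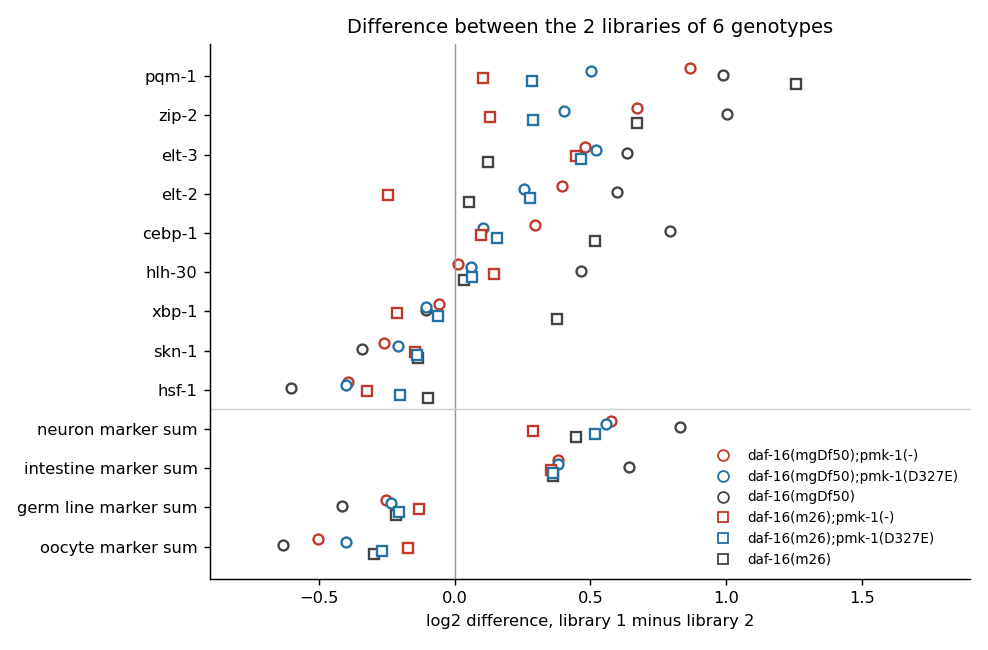
Log2 difference between the library numbered 1 and the library numbered 2 (x axis, positive when number 1 is higher) of each of the 9 genes and of the summed neuron, intestine, germ line and oocyte markers (y axis), with a point for each of the 6 genotypes with 2 libraries. The other summed markers are not drawn. The points of *pqm-1*, *zip-2* and *elt-3* all lie above 0, with medians of 0.68, 0.54 and 0.47, and those of *hsf-1* and *skn-1* all below 0, with medians of -0.36 and -0.18.

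The *zip-2* result was recomputed with this variation taken in. With the summed oocyte markers as a covariate the averaged *pmk-1(-)* difference of *zip-2* was -1.14 (SE 0.09, adjusted p = 2.22e-06), and *pmk-1(-)* against wild type was then called too (-1.16, adjusted p = 0.000316, limma). Without the first library of each *daf-16* single mutant, the averaged difference was -0.83 (SE 0.15, adjusted p = 0.0169). The part of tissue composition in the values of the other 8 genes was not tested beyond the same refit, in which *skn-1* gained a call in averaged *pmk-1(-)* (-0.13, SE 0.03, adjusted p = 0.0417) and in averaged m26 (0.14, adjusted p = 0.0279, limma).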

How the data were processed

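Levels were read from the deposited TPM table, in which the authors gave 1 column per library. Per the labels and the study's methods, poly-A RNA was made into strand-specific libraries, checked with FastQC 0.11.2, aligned to ce10 with STAR 2.5.3a, stripped of duplicate reads with Picard 2.10, which limits short, highly expressed genes, and counted with featureCounts. The strand setting and the handling of reads with several matches are not given in the sources used here. The 8 deposited tables of the authors' own comparisons (log2 fold change, log2 CPM, p-value, FDR) were not used. TPM keeps no depth, so no count model or counting interval was possible.

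Values were tested as log2(TPM + 1) with limma 3.58.1 in R 4.3.3 (trend and robust variance), in a single fit of all 9 genotypes over the 12843 genes averaging 1 TPM or more, with Benjamini-Hochberg adjustment over them and calls at an adjusted p under 0.1. Averaged comparisons weight the 3 *daf-16* backgrounds, or the 3 *pmk-1* states, equally. Replicates are described as biological by the submitters. The members and gene lists were chosen with earlier results of these data known, and the named genes are the members, the pathway genes called and a few known reporters. The replicate numbers were taken to pair wild type libraries with those of *pmk-1(-)* from their values alone (correlations of 0.196, 0.856 and 0.424), not from the labels. The fit was tested on simulated data. Alternatives changed the pseudocount, the filter, the threshold, the scaling, the variance model, the samples fitted and the replicate block, or left out each library. Of 211 listed genes, 208 were found by name. No sequences are shown, since none were used here.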

Additional observations from a re-analysis of the deposited data

How the results depend on the processing

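*zip-2* kept its direction and its call in both averaged comparisons under all 31 alternatives, with a log2 difference of -1.28 to -0.83 (adjusted p 2.22e-06 to 0.0264) in *pmk-1(-)* and 1.21 to 1.44 (adjusted p 1.65e-07 to 0.00339) in *pmk-1(D327E)* against *pmk-1(-)*. No value reversed. Another pseudocount (0.1), no filter or one of 5 TPM, a threshold of 0.05, and a variance model without trend left all 22 counts of members called as they were. Rescaling moved the median gene by up to 0.20 on the log2 scale and took the test for any difference to 0 members (smallest adjusted p 0.123). Fitting only the genotypes compared called 1 member, *zip-2*, in *daf-16(m26);pmk-1(-)* against wild type and against *daf-16(m26)*.

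With the replicate block the members called numbered 2 in *pmk-1(-)* (1.67% of genes called), 5 in *daf-16(mgDf50)* (34.7%), 2 in *daf-16(m26)* (23.2%), 3 in *daf-16(mgDf50);pmk-1(-)* (30.3%), 7 in *daf-16(mgDf50);pmk-1(D327E)* (52.2%) and 1 in *daf-16(m26);pmk-1(-)* (3.22%), each against wild type, 1 in each *pmk-1(-)* double mutant within mgDf50 (0.989%) and m26 (1.29%), 7 in averaged mgDf50 (61.6%, 7912 genes beside 330 without the block) and 2 in averaged m26 (35.6%). The m26 calls were *pqm-1* and *cebp-1*, and averaged mgDf50 called every member but *skn-1* and *hlh-30*. *cebp-1* was called with the block in *daf-16(mgDf50)* (0.52, adjusted p = 0.0584) and *daf-16(m26)* (0.58, adjusted p = 0.0697) against wild type, in averaged mgDf50 (0.43, adjusted p = 0.0122) and in averaged m26 (0.33, adjusted p = 0.0475, limma). Deviations of same-numbered libraries correlated with wild type at 0.119 to 0.702 in the 12 *daf-16* mutant libraries, with 2 numbers per genotype, and at 0.017, 0.711 and 0.766 in *pmk-1(D327E)*. The labels state no pairing. With the oocyte covariate, chosen after seeing the data, *zip-2* was the 1 member called in *pmk-1(-)* and both *pmk-1(-)* double mutants against wild type and in both within a background, 2 members, *skn-1* and *zip-2*, were called in averaged *pmk-1(-)* (896 genes called, beside 212 without it) and in the test for any difference (1173 beside 239), and 1, *skn-1*, in averaged m26 (1067 beside 111). Without the first library of each *daf-16* single mutant, likewise chosen after seeing the data, 1 member, *zip-2*, was called in *pmk-1(-)* and in *daf-16(m26);pmk-1(-)* against wild type.

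Leaving out each library in turn gave 0 to 1 members in *pmk-1(-)*, *daf-16(mgDf50)* and *daf-16(m26);pmk-1(-)* against wild type and in both *pmk-1(-)* double mutants within their background. *zip-2* gained the call in *pmk-1(-)* and *daf-16(m26);pmk-1(-)* against wild type and in *daf-16(m26);pmk-1(-)* within its background without either *daf-16(mgDf50)* library, and within mgDf50 without the second, where *cebp-1* gained it in *daf-16(mgDf50)* against wild type. Averaged mgDf50 gave 0 to 4 members, with 3 (*elt-2*, *cebp-1*, *xbp-1*) without *pmk-1(-)* library 1 and 4 (*elt-2*, *pqm-1*, *zip-2*, *cebp-1*) without *daf-16(mgDf50)* library 2, while genes called ran over 75 to 3231. The cause of these moves was not tested. Among listed genes, the averaged *pmk-1(-)* call of *pgp-5* was lost in 12 of 30 alternatives, and the mgDf50 calls of *sip-1* and *dlk-1* in 24 and 23 of 31. Depth is unknown, so counting error could not be estimated for any gene.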
